A study of Mus musculus with 14 samples.

Results

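The 3 simple keratin genes Krt8, Krt18 and Krt19 and the 6 desmosome genes Dsc2, Dsg2, Dsp, Jup, Pkp2 and Pkp3 were followed through 14 RNA-seq libraries of mouse tumor organoids. They were chosen by symbol, as the intermediate filaments of a single-layered epithelium and the junctions that anchor them. The rule uses no measured value, but the genes were chosen with earlier results of these data known. All 9 were listed in both sets of libraries, among 55421 genes in set 1 and 17490 in set 2, and all 9 passed the filter on low counts in both. The organoids are small intestinal tumor organoids named APT, a name that the labels do not spell out. They carried a doxycycline-inducible short hairpin RNA against Suv4-20h2, a histone methyltransferase listed here under its gene symbol Kmt5c, or a control hairpin. Hairpin 1 (3 libraries) targets exon 4 and was set against control 1 (3 libraries), and these 6 form set 1. Hairpin 2 (4 libraries) targets exon 9 and was set against control 2 (4 libraries), and these 8 form set 2. Hairpin and control organoids alike received 0.5 µg/ml doxycycline for 4 days. Each hairpin and each control is labelled as 1 clone, and the labels do not state whether replicates were grown apart. The p-values therefore cover library-to-library spread, some or all of which may be technical. An effect of a hairpin cannot be told apart from a difference between clones. Set and hairpin go together, so levels were tested within a set and never between sets.

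Keratins form intermediate filaments from pairs of one type I and one type II protein. In simple epithelia such as the intestinal lining, the type II keratin Krt8 pairs with the type I keratins Krt18 and Krt19. Desmosomes join these filaments across neighbouring cells. The cadherins Dsg2 (desmoglein) and Dsc2 (desmocollin) bridge the gap between the cells, the armadillo proteins Jup (plakoglobin), Pkp2 and Pkp3 (plakophilins) bind the cadherin tails, and Dsp (desmoplakin) ties this plaque to the keratin filaments.

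Total counts per library ran from 9272134 to 26284079, and a single gene among the 9 had between 796 and 60711 counts in a library. Values are given in CPM, counts scaled to a common library size by edgeR's TMM factors. Kmt5c, the targeted gene, had 58.0 ± 5.59 CPM in hairpin 1 and 71.8 ± 4.25 CPM in control 1 (SD, n = 3 each, log2 fold change -0.31, edgeR adjusted p = 0.80). In set 2 it had 108 ± 6.40 CPM in hairpin 2 and 124 ± 6.41 CPM in control 2 (SD, n = 4 each, log2 fold change -0.20, edgeR adjusted p = 0.098, and 0.0074 with the replicate number as a block). Hairpin 1 replicate 1 stands apart from the other libraries of set 1: 7 goblet cell markers summed to 111 CPM there and to at least 1901 CPM in the other 2 hairpin 1 libraries, and the intestinal transcription factor gene Cdx1 had 23.7 CPM there, against 281 and 348 CPM in replicates 2 and 3. In set 2, the replicate 4 libraries of both groups deviate together from replicates 1 to 3. Values without these libraries are given below for the 9 genes. For the other lists they are given in part, with counts without both replicate 4 libraries at the end. The organoids are epithelial by their markers in every group, since none of Epcam, Cdh1, Cldn7, Vil1, Cdx1 and Cdx2 was at 0 throughout a group and together they summed to between 2368 and 3542 CPM. Stromal markers summed to at most 2.32 CPM in set 1, where Dcn and Lum were at 0.

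Krt8 and Krt18 are neighbours. Krt8 (ENSMUSG00000049382) lies on chromosome 15, 101996698 to 102004482 on the minus strand, and Krt18 (ENSMUSG00000023043) on chromosome 15, 102028180 to 102032027 on the plus strand, in the GRCm38 build with GENCODE M21. The genes lie head to head with 23698 bases between them. Their promoter windows, 250 bases before to 50 after the RefSeq start in GRCm38.p6, are shown because these 2 genes both fell with hairpin 2 (below) and by different amounts. The Krt8 window is chr15:102004293-102004592 on the minus strand and the Krt18 window is chr15:102027966-102028265 on the plus strand, and both read 5′ to 3′ in the direction of the gene.
Krt8: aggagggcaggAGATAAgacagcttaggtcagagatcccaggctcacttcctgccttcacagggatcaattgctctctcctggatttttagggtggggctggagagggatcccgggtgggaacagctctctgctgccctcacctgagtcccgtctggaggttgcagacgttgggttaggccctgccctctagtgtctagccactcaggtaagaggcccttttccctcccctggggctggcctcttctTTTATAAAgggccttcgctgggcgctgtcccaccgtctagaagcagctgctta
Krt18: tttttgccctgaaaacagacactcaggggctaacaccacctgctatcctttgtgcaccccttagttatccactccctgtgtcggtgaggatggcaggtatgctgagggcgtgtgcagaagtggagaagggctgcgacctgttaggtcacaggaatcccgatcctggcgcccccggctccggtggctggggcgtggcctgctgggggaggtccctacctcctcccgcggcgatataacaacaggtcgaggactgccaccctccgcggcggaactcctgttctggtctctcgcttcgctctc
Capitals mark matches, on either strand, to 5 motifs: the TATA box TATAAA, the CCAAT box CCAAT, the GC box GGGCGG, the AP-1 motif TGANTCA and the GATA motif AGATAA. In Krt8 the first capitals are AGATAA and the second hold TATAAA together with an overlapping TTTATA, which is the same motif on the other strand. These 2 matches begin at offsets -1 and -3 from the RefSeq start, so they span that start and do not lie upstream of it. The Krt18 window held no match to the 5. Among 32851 promoter windows of the same length, 13.6% held TATAAA, 37.4% CCAAT, 35.7% GGGCGG, 7.81% TGANTCA and 11.2% AGATAA, so a match is common. GC content was 58% in the Krt8 window and 61.3% in the Krt18 window. The RefSeq table matched 4 of the 9 genes (Krt8, Krt18, Dsp and Jup).

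The third keratin gene, Krt19 (ENSMUSG00000020911), lies on chromosome 11, 100140810 to 100148665, minus strand. Dsc2 (ENSMUSG00000024331, chromosome 18, 20030633 to 20059554, minus strand) and Dsg2 (ENSMUSG00000044393, chromosome 18, 20558074 to 20604521, plus strand) share a chromosome, as the desmosomal cadherin genes are clustered there. Dsp (ENSMUSG00000054889) lies on chromosome 13, 38151294 to 38198577, plus strand, and Jup (ENSMUSG00000001552) on chromosome 11, 100368958 to 100397763, minus strand. Pkp2 (ENSMUSG00000041957) lies on chromosome 16, 16213318 to 16272712, plus strand, and Pkp3 (ENSMUSG00000054065) on chromosome 7, 141078218 to 141090510, plus strand. These positions too are from GRCm38.

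Levels between genes were compared per kilobase of exon (CPM per kb), with the union of all annotated exons as the length. That union can be longer than the transcript expressed, so the order of genes depends on it. Among the 9 genes, the 3 keratins ranked above the 6 desmosome genes in all 4 groups, and Pkp2, a plakophilin that also works in heart muscle, ranked last. Outside the 9, the desmosome gene Pkp1 averaged 200 CPM per kb in hairpin 2, above Krt8, and 180 CPM per kb in control 2. The desmosome gene Perp averaged 64.5 CPM per kb in hairpin 1 and 51.35 CPM per kb in control 1, above Jup and Dsp. In hairpin 2, Krt19 averaged 867 ± 112, Krt18 504 ± 11.1 and Krt8 141 ± 24.9 CPM per kb, and in control 2 they averaged 923 ± 83.3, 670 ± 38.3 and 260 ± 5.89 CPM per kb (SD, n = 4 each). The ranges of these 3 genes did not overlap within either group of set 2. Below them, Jup led the 6 desmosome genes in set 2 at 72.7 ± 4.45 CPM per kb in hairpin 2 and 70.9 ± 3.35 in control 2. Dsp came next at 52.9 ± 8.97 and 44.4 ± 4.63 CPM per kb, with no overlap between Jup and Dsp within a group. Dsc2, Pkp3 and Dsg2 followed in hairpin 2 at 29.0 ± 1.11, 26.1 ± 2.57 and 25.8 ± 1.87 CPM per kb, with overlapping ranges. In control 2, Dsc2 stood above the others at 38.2 ± 2.29 CPM per kb, ahead of Dsg2 at 31.3 ± 2.03 and Pkp3 at 27.5 ± 1.70, where only Dsg2 and Pkp3 overlapped. Pkp2 stood at 17.3 ± 3.37 CPM per kb in hairpin 2 and 19.4 ± 2.06 in control 2. In set 1 the keratins were not separated: Krt19, Krt8 and Krt18 averaged 873 ± 504, 731 ± 131 and 608 ± 56.7 CPM per kb in hairpin 1, and Krt19, Krt8 and Krt18 averaged 621 ± 193, 726 ± 63.9 and 797 ± 161 CPM per kb in control 1 (SD, n = 3 each), with overlapping ranges. Of the 6 desmosome genes in set 1, Dsp and Jup led in hairpin 1 at 53.9 ± 26.4 and 51.2 ± 20.9 CPM per kb. Jup, Pkp3 and Dsp led in control 1 at 43.4 ± 6.85, 38.7 ± 5.12 and 37.3 ± 2.02 CPM per kb. Dsc2 averaged 27.5 ± 3.01 CPM per kb in hairpin 1 and 16.7 ± 2.73 in control 1, and Dsg2 27.3 ± 6.28 and 19.6 ± 4.12 CPM per kb. The 9 genes together took 0.418 to 0.672% of the counts in hairpin 1 and 0.434 to 0.555% in control 1. They took 0.358 to 0.437% in hairpin 2 and 0.450 to 0.489% in control 2, with no overlap.

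**Figure D1:**
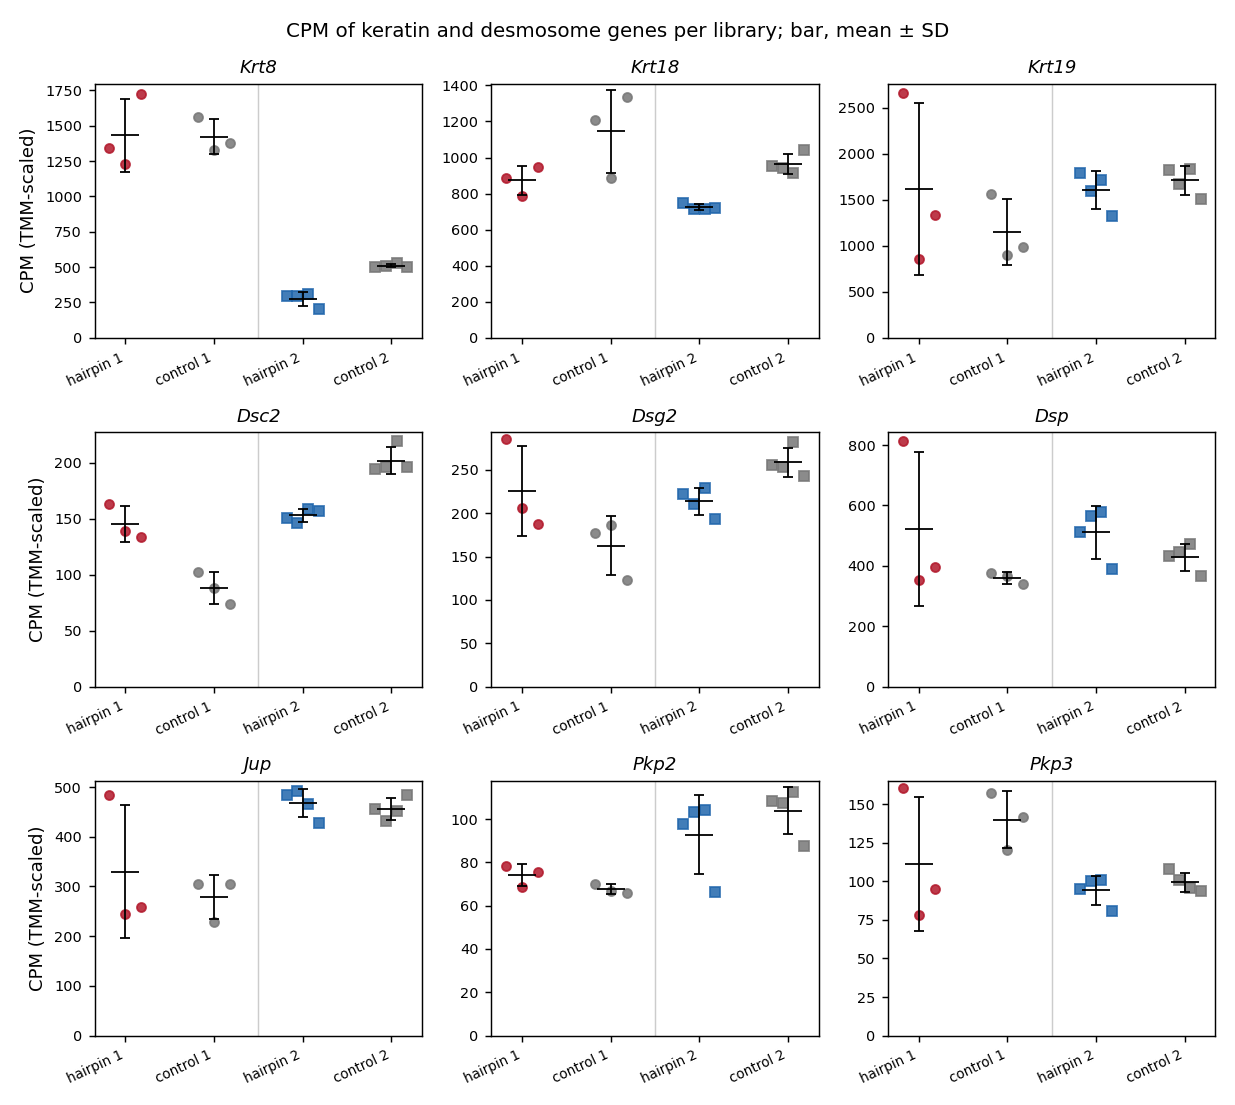
CPM (linear axis from 0) of the 9 genes in each library of hairpin 1, control 1, hairpin 2 and control 2, with the mean and SD as bars. Krt8 lies between 203 and 308 CPM in hairpin 2 and between 500 and 526 CPM in control 2, and hairpin 1 replicate 1 is the highest library of its set for Krt19 (2663 CPM), Dsp (814 CPM) and Jup (485 CPM).

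The comparison of hairpin 2 with control 2 asked which of the 9 transcripts differ when exon 9 is targeted. Krt8, Krt18 and both desmosomal cadherins Dsc2 and Dsg2 fell, with log2 fold changes of -0.89, -0.41, -0.40 and -0.28. Krt19 and the 4 plaque genes did not pass the test as fitted, with values from -0.16 for Pkp2 to 0.25 for Dsp. In all, 4 of 9 passed, all lower, where 6.05% of the 14126 genes tested passed in either direction and 4.01% passed as lower (edgeR, adjusted p under 0.05). The median log2 fold change was -0.16 over the 9 genes, with 7 below 0, and 0.005 over all genes tested, with 48.9% below 0. In bulk RNA, fewer cells of a type and less RNA per cell cannot be told apart.

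Krt8, the type II partner, had 297, 293, 308 and 203 CPM in hairpin 2, against 503, 509, 526 and 500 CPM in control 2. All 4 hairpin libraries lay below all control libraries, and replicate 4 was the lowest. The log2 fold change was -0.89 (SE 0.115, 95% interval -1.15 to -0.63, edgeR adjusted p = 0.0016), a level 0.54 of the control level. Its type I partner Krt18 had 748, 714, 716 and 718 CPM in hairpin 2, against 955, 942, 912 and 1040 CPM in control 2. The groups again did not overlap, and the log2 fold change was -0.41 (SE 0.0576, interval -0.54 to -0.28, edgeR adjusted p = 0.0026). Krt19, the other type I keratin and the most abundant of the 3 per kilobase, had 1795, 1597, 1720 and 1321 CPM in hairpin 2, against 1824, 1675, 1839 and 1507 CPM in control 2. The groups overlapped, and the log2 fold change of -0.09 did not pass (interval -0.32 to 0.14, edgeR adjusted p = 0.70).

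The balance of Krt8 mRNA to Krt18 and Krt19 mRNA was computed per library. In set 2, Krt8 divided by the sum of Krt18 and Krt19, all per kilobase, was 0.102, 0.110, 0.110 and 0.0854 in hairpin 2, against 0.156, 0.167, 0.165 and 0.166 in control 2. Every hairpin 2 library lay below every control 2 library. Of the sum of Krt18 and Krt19, Krt19 made up 65.0, 63.4, 65.0 and 58.8% in hairpin 2, against 59.7, 57.9, 61.0 and 52.9% in control 2. Replicate 4 was the lowest in both groups, and the groups overlapped. Other type I keratins are not in this sum, and of these Krt23 averaged 556 CPM per kb in hairpin 2 and 483 in control 2. Krt7, a second type II keratin of simple and ductal epithelia, had 612, 560, 596 and 396 CPM in hairpin 2, against 655, 624, 641 and 576 CPM in control 2. Krt7 did not pass the test (log2 fold change -0.20, edgeR adjusted p = 0.40, and 0.035 with the replicate block). Per kilobase, Krt8 was 1.75, 1.88, 1.86 and 1.84 times Krt7 in hairpin 2, against 2.77, 2.94, 2.95 and 3.13 times in control 2. Before division by length, Krt7 had more CPM than Krt8 in every library of both groups, so this order depends on the exon lengths used. These ratios are descriptions of the libraries and were given no test.

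**Figure D2:**
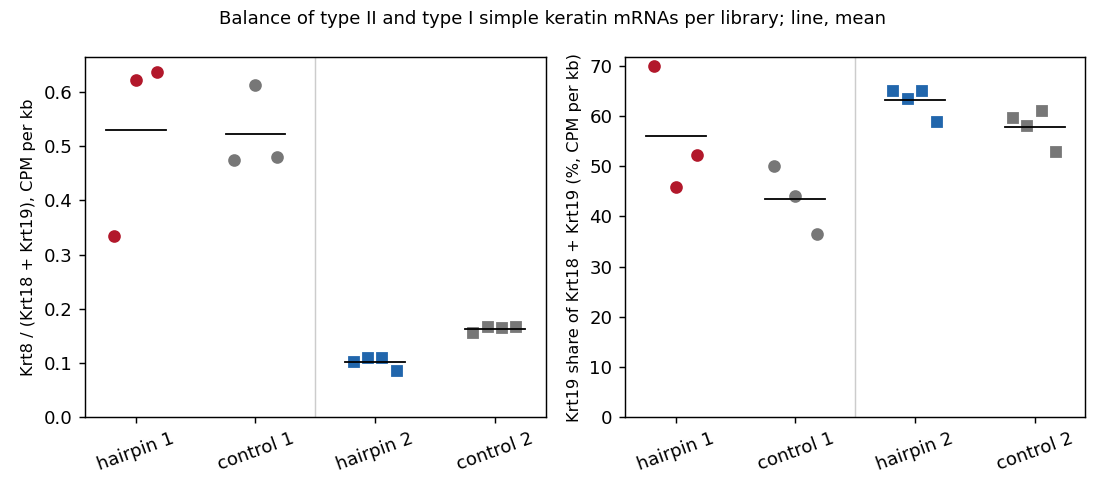
Left, Krt8 divided by the sum of Krt18 and Krt19 (CPM per kb), and right, the share of Krt19 in that sum in percent, per library of hairpin 1, control 1, hairpin 2 and control 2, with a line at each mean. The ratio runs from 0.0854 to 0.110 in hairpin 2 and from 0.156 to 0.167 in control 2, while in set 1 hairpin 1 replicate 1 is the lowest library at 0.334.

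Among the desmosomal cadherins, Dsc2 had 151, 146, 158 and 157 CPM in hairpin 2, against 195, 196, 220 and 196 CPM in control 2. No libraries overlapped, and the log2 fold change was -0.40 (SE 0.0583, interval -0.53 to -0.27, edgeR adjusted p = 0.0032). Dsg2 had 222, 210, 229 and 194 CPM in hairpin 2, against 256, 253, 282 and 243 CPM in control 2, also with no overlap. Its log2 fold change of -0.28 was close to the threshold (SE 0.0691, interval -0.43 to -0.12, edgeR adjusted p = 0.045). The Dsg2 call was lost in 6 of the 8 fits that left out 1 library, with adjusted p up to 0.13, and without the filter on low counts (adjusted p = 0.051), while Krt8, Krt18 and Dsc2 passed in all 8. In a model that shared 1 estimate of the spread over all 14 libraries, Krt8 alone of the 9 passed in set 2, and Krt18, Dsc2 and Dsg2 had edgeR adjusted p of 0.34, 0.20 and 1.0.

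None of the 4 plaque genes passed in the main test. Dsp, the link to keratin filaments, had 511, 565, 579 and 388 CPM in hairpin 2, against 431, 447, 472 and 367 CPM in control 2. Hairpin replicates 1 to 3 lay above every control library, and replicate 4 was the lowest library of its own group in both. The log2 fold change of 0.25 did not pass in the main test (SE 0.124, interval -0.03 to 0.53, edgeR adjusted p = 0.30). It passed with the replicate block (0.24, adjusted p = 0.0050) and without hairpin 2 replicate 4 (0.36, adjusted p = 0.022). Dsp was also called as higher by limma voom with library quality weights. Chromosome 13, which holds Dsp, had a median log2 fold change of 0.18 over its 513 tested genes, and Dsp exceeded that median by 0.07.

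Jup, the plakoglobin that binds cadherin tails, had 485, 493, 465 and 429 CPM in hairpin 2, against 455, 432, 453 and 484 CPM in control 2, overlapping groups with a log2 fold change of 0.04 (interval -0.10 to 0.18, edgeR adjusted p = 0.81). Pkp2 had 97.8, 103, 104 and 66.1 CPM in hairpin 2, against 108, 107, 112 and 87.7 CPM in control 2. Its log2 fold change of -0.16 did not pass (interval -0.47 to 0.15, edgeR adjusted p = 0.59) but did with the replicate block (-0.17, adjusted p = 0.049). Pkp3 had 95.01, 100.4, 101 and 80.9 CPM in hairpin 2, against 108, 101, 95.8 and 94.1 CPM in control 2, with a log2 fold change of -0.08 (interval -0.25 to 0.10, edgeR adjusted p = 0.65). With the replicate block, 6 of 9 genes passed, 5 lower and 1 higher, where 20.4% of all genes tested passed in either direction, 10.1% as lower and 10.2% as higher. Without both replicate 4 libraries, Krt8 stood at -0.78, Krt18 at -0.37, Dsc2 at -0.43, Dsg2 at -0.26 and Dsp at 0.29, and these 5 passed (highest edgeR adjusted p 0.0021). Krt19, Jup, Pkp2 and Pkp3 stood at -0.06, 0.11, -0.11 and -0.04 in that fit and did not pass.

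Taken pair by replicate number, 6 genes were lower in hairpin 2 in all 4 pairs (Krt8, Krt18, Krt19, Dsc2, Dsg2 and Pkp2) and 1, Dsp, was higher in all 4. Among all genes tested, 20.1% were lower in all 4 pairs and 20.5% were higher. The pairwise log2 differences were -0.76, -0.80, -0.77 and -1.30 for Krt8 and -0.37, -0.43, -0.47 and -0.32 for Dsc2, so that replicate 4 carried the largest difference for Krt8 and the smallest for Dsc2. For Dsp they were 0.24, 0.34, 0.29 and 0.08. By group, 4 of 9 genes did not overlap (Krt8, Krt18, Dsc2 and Dsg2, all lower in hairpin 2), against 15.3% of all genes tested in either direction and 8.42% as lower.

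Markers of cell types were read beside these genes in set 2. The 6 epithelial markers summed to between 2483 and 2617 CPM in hairpin 2 and between 2861 and 3120 CPM in control 2, without overlap. Of these, 2 passed as lower, Cdh1, the adherens junction cadherin (log2 fold change -0.28, edgeR adjusted p = 0.0079), and Cdx1 (-1.92, adjusted p = 2.6e-05), and with the replicate block Epcam (-0.23, adjusted p = 0.0041) and Cldn7 (-0.19, adjusted p = 0.014) passed as well. The 8 listed enterocyte markers summed to between 33.8 and 56.1 CPM in hairpin 2, where Sis was at 0, and between 85.7 and 103 CPM in control 2. Most of this was Mgam, with means of 40.9 and 76.5 CPM. Of 4 tested, 3 passed as lower, and Anpep stood at 0.13 and did not pass (edgeR adjusted p = 0.89).

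The summed secretory and stem cell markers overlapped between the groups. The 7 goblet cell markers summed to between 136 and 242 CPM in hairpin 2 and between 168 and 314 CPM in control 2. Of these, 6 were below 0 and 1, Clca1, passed as lower (-0.55, edgeR adjusted p = 0.045), and with the replicate block 4 passed as lower and 1 as higher. The 6 listed Paneth cell markers summed to between 25.2 and 39.9 CPM in hairpin 2 and between 29.3 and 60.2 CPM in control 2. All 4 tested were below 0 and none passed, and 2 passed as lower with the block. The 4 listed stem cell markers summed to between 1732 and 2091 CPM in hairpin 2 and between 1748 and 2050 CPM in control 2. Most of this was Axin2, with means of 1576 and 1490 CPM, so the overlap of the sum is mainly that of Axin2. Smoc2 passed as lower (-0.27, edgeR adjusted p = 0.019), as did Lgr5 with the block (adjusted p = 0.0053).

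Markers of other tissues were few. The sum of the 4 listed squamous markers was nearly all Lor, which had 781, 737, 796 and 1324 CPM in hairpin 2, against 676, 554, 658 and 868 CPM in control 2. Lor overlapped between the groups (0.40, edgeR adjusted p = 0.29, and 0.0012 with the replicate block), and Krt6a, Ivl and Krt14 had at most 1.27 CPM in any library of set 2. The 4 listed stromal markers summed to between 13.9 and 15.6 CPM in hairpin 2 and between 9.23 and 11.95 CPM in control 2. Nearly all of this was Pdgfra, with means of 14.5 and 9.95 CPM, and it passed as higher (0.55, edgeR adjusted p = 0.0094). Col1a1, the only other stromal marker tested, stood at -0.69 and did not pass (edgeR adjusted p = 0.31). The 2 listed immune markers summed to between 11.8 and 15.7 CPM in hairpin 2 and between 14.2 and 20.5 CPM in control 2, with overlap, and Cd68 passed as lower with the block alone (adjusted p = 0.018). The part of any of these markers in the keratin and cadherin values was not tested.

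**Figure D3:**
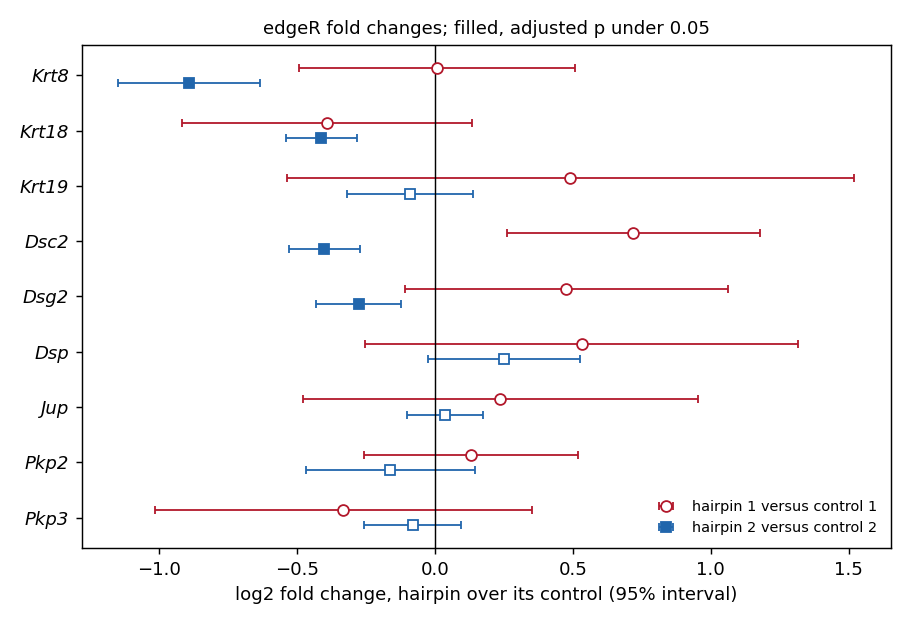
Log2 fold change of hairpin over its control (x axis) with its 95% interval for each of the 9 genes (rows), hairpin 1 above hairpin 2, with filled symbols where the edgeR adjusted p is under 0.05. Filled symbols stand at -0.89 for Krt8, -0.41 for Krt18, -0.40 for Dsc2 and -0.28 for Dsg2 in hairpin 2, and every hairpin 1 symbol is open.

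The comparison of hairpin 1 with control 1 asked the same of exon 4. None of the 9 genes passed, and neither did any of the 13540 genes tested (0% called, smallest edgeR adjusted p 0.80, 733 genes at an unadjusted p under 0.05, and 22 genes but none of the 9 called by DESeq2). The largest log2 fold change was that of the cadherin gene Dsc2, in the direction opposite to hairpin 2. Over the 9 genes the median log2 fold change was 0.24, with 7 above 0, and over all genes tested it was 0.03, with 52.5% above 0. Without hairpin 1 replicate 1, the median over the 9 genes was 0.05, with 5 above 0 and none called.

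Dsc2 had 163, 139 and 133 CPM in hairpin 1, against 103, 87.7 and 74.0 CPM in control 1. All hairpin libraries lay above all control libraries, with a log2 fold change of 0.72 (SE 0.196, interval 0.26 to 1.18, unadjusted p = 0.0074, edgeR adjusted p = 0.80). The model of all 14 libraries called it (0.73, adjusted p = 0.022). Dsg2 had 285, 205 and 187 CPM in hairpin 1, against 177, 187 and 123 CPM in control 1, so replicate 3 of hairpin 1 exceeded the highest control library by less than 1 CPM. Its log2 fold change was 0.48 (interval -0.11 to 1.06, edgeR adjusted p = 0.80). These 2 of 9 genes did not overlap between the groups, against 12.8% of all genes tested in either direction and 6.5% as higher.

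Dsp had 814, 354 and 395 CPM in hairpin 1, against 377, 365 and 339 CPM in control 1. Replicate 1 alone was far above the rest, and the log2 fold change was 0.53 (interval -0.25 to 1.32, edgeR adjusted p = 0.80) with it and 0.05 without it. Krt19 had 2663, 858 and 1335 CPM in hairpin 1, against 1563, 902 and 990 CPM in control 1, with a log2 fold change of 0.49 that became -0.07 without replicate 1. Jup had 485, 245 and 259 CPM in hairpin 1, against 305, 229 and 305 CPM in control 1, with a log2 fold change of 0.24 that became -0.15 without it. Without that library the values were 0.62 for Dsc2 and 0.27 for Dsg2. The 7 squamous markers did not move one way in that library. Their sum was the lowest of hairpin 1 there, at 275 CPM, because Lor (loricrin) had 28.6 CPM, against 279 and 467 CPM in replicates 2 and 3. Ivl (involucrin) had 220 CPM, against 0.168 and 0.159 CPM, and Krt14 had 23.3 CPM, against 1.74 and 2.28 CPM. Some desmosome genes of stratified epithelia, named here after their values were seen, were high in the same library. Dsg3 had 35.3 CPM, Dsg4 22.0 CPM and Pkp1 393 CPM, against at most 1.38, 0.371 and 96.7 CPM in replicates 2 and 3. Others of their list were not: Dsc1, Dsg1a and Dsg1b were at 0 in every hairpin 1 library, and Dsc3 had at most 0.56 CPM there. The log2 fold change of Dsg1c was 0.58 with replicate 1 and 1.03 without it. The part of these genes in the values of the 9 was not tested.

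The remaining 4 genes, Krt8, Krt18, Pkp2 and Pkp3, overlapped between the groups. Krt8 had 1340, 1231 and 1721 CPM in hairpin 1, against 1563, 1325 and 1379 CPM in control 1, with a log2 fold change of 0.01 (interval -0.49 to 0.51, edgeR adjusted p = 0.99). Krt18 had 884, 787 and 949 CPM in hairpin 1, against 1211, 887 and 1336 CPM in control 1, with a log2 fold change of -0.39 (interval -0.91 to 0.13, edgeR adjusted p = 0.80). Pkp2 had 78.2, 68.6 and 75.7 CPM in hairpin 1, against 70.1, 66.9 and 66.1 CPM in control 1, with a log2 fold change of 0.13 (edgeR adjusted p = 0.88). Pkp3 had 160, 78.1 and 95.4 CPM in hairpin 1, against 158, 121 and 142 CPM in control 1, and its log2 fold change was -0.33 (edgeR adjusted p = 0.84) with replicate 1 and -0.69 without it. Without replicate 1, Krt8, Krt18 and Pkp2 stood at 0.05, -0.40 and 0.09. The ratio of Krt8 to the sum of Krt18 and Krt19, per kilobase, was 0.334, 0.622 and 0.637 in hairpin 1, against 0.474, 0.613 and 0.481 in control 1. Krt19 made up 70.0, 45.8 and 52.2% of that sum in hairpin 1, against 50.002, 44.1 and 36.5% in control 1. The ratio was lowest and the Krt19 share highest in hairpin 1 replicate 1.

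**Figure D4:**
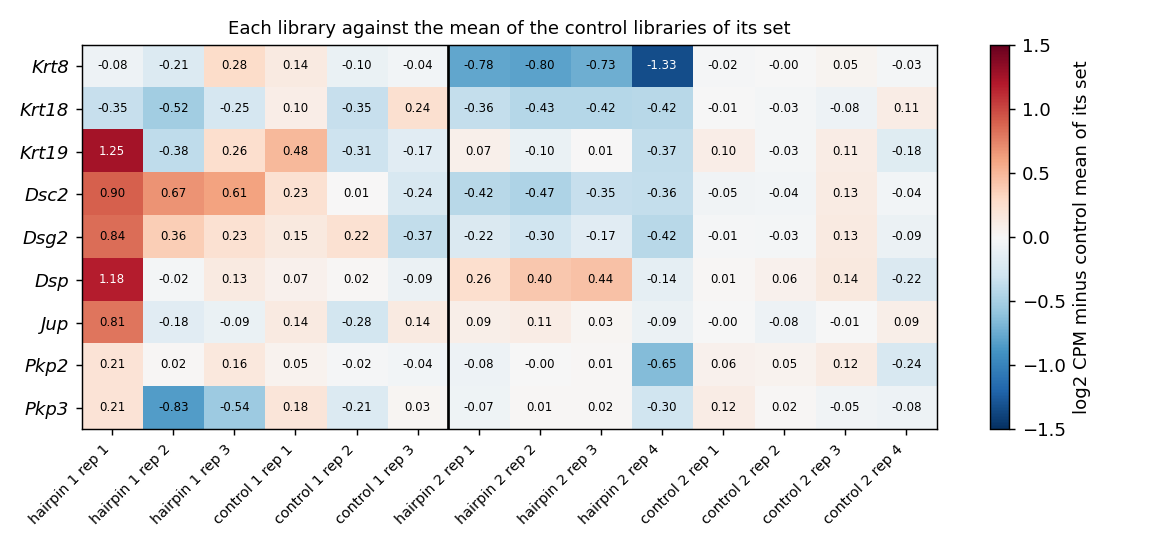
Log2 CPM of each of the 9 genes (rows) in each of the 14 libraries (columns) minus the mean of the control libraries of its set, in color and digits. Hairpin 1 replicate 1 stands at 1.25 for Krt19 and 1.18 for Dsp, Dsc2 lies between 0.61 and 0.90 in the hairpin 1 libraries and between -0.47 and -0.35 in the hairpin 2 libraries, and Krt8 is lowest in hairpin 2 replicate 4 at -1.33.

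Whether the difference between hairpin and control clone was unlike for the 2 hairpins was tested directly, as the hairpin 2 log2 fold change minus that of hairpin 1. Of the 9 genes, Dsc2 passed, where 0.412% of the 15043 genes tested passed in either direction and 0.366% as below 0. The Dsc2 difference was -1.13 (SE 0.171, interval -1.495 to -0.76, edgeR adjusted p = 0.013). It passed in all 14 fits that left out 1 library, with adjusted p up to 0.041, and was -1.15 with an adjusted p of 0.055 when both replicate 4 libraries of set 2 were left out. Krt8 differed by -0.91 (SE 0.228, interval -1.40 to -0.42) without passing (edgeR adjusted p = 0.11). Krt8 passed by DESeq2 (adjusted p = 0.011) and without hairpin 1 replicate 1 (-0.98, edgeR adjusted p = 0.019). Dsg2 differed by -0.76 (interval -1.26 to -0.27, edgeR adjusted p = 0.20). For Krt18 the difference was -0.03 (interval -0.45 to 0.39, edgeR adjusted p = 0.98), so the data allow a difference of either sign. The other 5 differences lay between -0.58 for Krt19 and 0.24 for Pkp3, with edgeR adjusted p of 0.61 or more. Without hairpin 1 replicate 1 the differences were -1.06 for Dsc2 (edgeR adjusted p = 0.0017), -0.59 for Dsg2, -0.06 for Krt19, 0.15 for Dsp, 0.14 for Jup and 0.57 for Pkp3, and of these Dsc2 passed. The median was -0.30 over the 9 genes, with 8 below 0, and -0.06 over all genes tested, with 55.1% below 0.

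The other keratins were read from a list of 50 genes. In hairpin 2 against control 2, 14 were expressed highly enough to test and 4 passed, 2 lower and 2 higher, with a median log2 fold change of 0.20. With the replicate block, 3 passed as lower and 3 as higher, and the added genes were Krt7 and the hair keratin gene Krt32 (1.12, adjusted p = 0.023). Krt20, a type I keratin of differentiated intestinal cells, fell the most: it had 7.62, 5.05, 7.36 and 7.39 CPM in hairpin 2, against 39.1, 39.9, 43.6 and 47.3 CPM in control 2 (log2 fold change -2.65, edgeR adjusted p = 3.9e-06). The groups were far apart, with the highest hairpin library below the lowest control library. Krt4, a type II keratin of stratified mucosa, fell to 61.6, 54.8, 52.8 and 49.4 CPM in hairpin 2, against 88.7, 81.4, 95.8 and 73.1 CPM in control 2 (-0.63, edgeR adjusted p = 0.0038). The type I hair keratin Krt34 rose to 9.72, 6.43, 7.14 and 8.22 CPM in hairpin 2, against 2.27, 2.15, 3.25 and 1.85 CPM in control 2 (1.72, edgeR adjusted p = 8.6e-04). Krt33b also passed as higher (1.81, edgeR adjusted p = 0.0063) on 5 to 14 counts per library in hairpin 2 and 3 to 5 in control 2. Krt33b and Krt34 are 95.1% identical over 1115 aligned bases, so how reads were divided between them is uncertain. In hairpin 1 against control 1, 14 were tested and none passed (median 0.60, and -0.19 without hairpin 1 replicate 1), and the 2 most abundant, Krt7 and Krt4, stood at -0.10 and -0.40 on the log2 scale. Krt20 had 1140 counts in hairpin 1 replicate 1 and 116 and 35 in replicates 2 and 3, against 146, 27 and 59 counts in control 1.

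Of 10 other desmosome genes, 5 were tested in hairpin 2 against control 2 and 3 passed, with a median log2 fold change of -0.22. Pkp4, a plakophilin-related armadillo protein, fell to 108, 112, 101 and 107 CPM in hairpin 2, against 130, 131, 138 and 119 CPM in control 2 (-0.27, edgeR adjusted p = 0.025). The other 2 were near the limit of detection: Dsg3 had 3, 2, 2 and 2 counts in hairpin 2, against 12, 17, 17 and 45 counts in control 2 (-2.82, edgeR adjusted p = 0.016), and Dsg4 had 26, 30, 9 and 20 counts in hairpin 2, against 10, 12, 16 and 15 counts in control 2 (1.12, edgeR adjusted p = 0.019). Hairpin 2 replicate 3, with 9 counts of Dsg4, was the shallowest library. Perp, a tetraspan membrane protein of desmosomes, was just outside the threshold (-0.22, edgeR adjusted p = 0.050, and 0.011 with the replicate block) and is named here after its value was seen. In hairpin 1, 6 were tested and none passed, with Pkp1 at 0.19 and Pkp4 at -0.01, and at -0.88 and -0.25 without replicate 1. The median of the 6 was 0.46 with that library and -0.46 without it.

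Keratin linkers were read together with hemidesmosome genes, and the latter tie keratins to the basement membrane. No gene passed among 11 tested of 12 in hairpin 2 against control 2. With the replicate block Lama3 (0.31, edgeR adjusted p = 0.016) passed as higher and Eppk1 (-0.58, 0.0045), Lamb3 (-0.35, 0.029) and Ppl (-0.15, 0.048) as lower. Itgb4 and Itga6, the subunits of the hemidesmosome integrin, stood at -0.02 (edgeR adjusted p = 0.91) and -0.04 (0.85) on the log2 scale. For hairpin 1 none of 11 passed, and Itga6 stood at 0.63 and Lamb3, a laminin chain, at -0.41 (edgeR adjusted p of 0.80 and 0.82), and at 0.38 and -0.56 without replicate 1. The median of the 11 was 0.21 with that library and -0.45 without it. Other intermediate filament genes gave no call among 7 tested of 13 in either set without the block, and in set 2 the block called Nefh, a neurofilament gene (0.41, adjusted p = 0.0095), as higher and Lmna (-0.20, adjusted p = 0.011) as lower. The nuclear lamin genes Lmnb1 and Lmna stood at 0.07 (edgeR adjusted p = 0.90) and -0.20 (0.056) for hairpin 2 and at 0.11 and -0.03 for hairpin 1. No gene of these 4 lists passed in the test of the difference between the hairpins, while without hairpin 1 replicate 1 the test called 3 of the other keratins (1 above 0 and 2 below) and 1 other desmosome gene (above 0).

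The genes whose pattern over the 14 libraries was nearest to Krt8 and to Dsp were sought among the 9666 genes that averaged at least 5 CPM in each set. The measure was the root mean square difference in log2(CPM + 1), each set centred on its own mean, and it includes the difference between hairpin and control. Nearest to Krt8 were Nlrc4, an inflammasome component, at 0.155, Birc3, an inhibitor of apoptosis, at 0.161, and Prr5, a component of the mTORC2 kinase complex, at 0.181, where the median gene stood at 0.452. Their hairpin 2 log2 fold changes were -1.02, -0.75 and -0.76. Its partner Krt18 stood at 0.286, rank 50, and Dsp at 0.539, rank 7911. Nearest to Dsp were Mtmr10, a myotubularin family member, at 0.0784, Ube2g2, a ubiquitin-conjugating enzyme, at 0.0854, and the transcription factor gene Sp4 at 0.0892. The median gene stood at 0.388. The hairpin 2 log2 fold changes of these genes were 0.17, 0.17 and 0.26, and none passed (edgeR adjusted p of 0.48, 0.42 and 0.38). Dsp deviated most in hairpin 1 replicate 1, at 1.18 above the control mean in log2 CPM, so that library weighs heavily in its likenesses. Among the 9 genes the smallest difference was that of Dsc2 and Dsg2 (0.144), which ranked Dsg2 at 5 from Dsc2 and Dsc2 at 63 from Dsg2. These likenesses come from the same libraries as the fold changes and carry no test.

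The genomic neighbourhood was read in hairpin 2 against control 2. Beyond Krt18, the next expressed gene within 50 kb was Eif4b, a translation initiation factor gene, at -0.17 (edgeR adjusted p = 0.13). Chromosome 15 had a median log2 fold change of -0.03 and chromosome 18 one of 0.002, so Krt8 and Dsc2 stood at -0.86 and -0.40 relative to the medians of their chromosomes. A near-identical copy could draw reads from 1 of the 9 genes: Krt8 shares 941 bases at 98.6% identity with the pseudogene Krt8-ps, which had 1.22 to 2.21 CPM in set 1 and 0.118 to 0.802 CPM in set 2, far under the level of Krt8. Transcripts on the opposite strand of Krt8, Dsg2 and Dsp had at most 1.93, 0.727 and 0.530 CPM. The library kit keeps strand, per the labels, and the strand setting of the counting is not given in the sources used here.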

How the data were processed

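Poly(A) RNA was sequenced from stranded libraries, 14 in all, of the organoids described above. The authors deposited 1 file per library with raw whole-number counts for each gene, with no normalization that the values show. The submitters' processing notes name bcl2fastq 2.20, FastQC, STAR, featureCounts, DESeq2 and GRCm38, and no source used here gives their settings. No line lacked a gene ID. Symbols, positions and exon lengths came from GENCODE M21, which matched 55154 of 55421 IDs in set 1 and 17464 of 17490 in set 2.

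The main test was the quasi-likelihood F test of edgeR 4.0.16 in R 4.3.3, fitted per set to the counts with TMM factors, filterByExpr and Benjamini-Hochberg adjustment over all genes tested, at a threshold of 0.05. The difference between hairpins was tested over all 14 libraries on genes listed in both sets. An SE is the log2 fold change divided by the square root of F, and intervals are 95% from the t distribution. CPM per kb divides by the union of exons. The script was tested on simulated data. Library totals ran from 9272134 to 26284079 counts.

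In set 2 the deviations of same-numbered libraries from their group means correlated at 0.37, 0.25, 0.39 and 0.69. Each exceeded the limit of 0.1, and numbers were treated as pairs in the block and in the counts by pair, but not in the main test. Differently numbered libraries among replicates 1 to 3 also exceeded it, at 0.18 to 0.29. Hairpin 2 replicate 2 correlated more with control 2 replicate 1 (0.28) than with its own number (0.25), so the limit does not single out same-numbered pairs there. The labels do not state this pairing, and it is clearest for replicate 4. Where the block changed the call of a gene or the count of a list named in the text, its value or count is printed.

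The 9 genes and all lists were chosen with earlier results of these data known. Beside the 9 genes, each list named its genes past the threshold, up to 6 by smallest p, and otherwise its 2 most abundant. The 3 genes nearest to Krt8 and to Dsp were named. Other genes were named after their values were seen. Alternatives tried were size factors from DESeq2, no filter, the DESeq2 1.42.0 Wald test, the replicate block, 1 model of all 14 libraries and leaving out each library. Leaving out both replicate 4 libraries of set 2 and limma 3.58.1 voom with quality weights were added after seeing the data. Figures were drawn with matplotlib 3.10.9.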

Additional observations from a re-analysis of the deposited data

Results flagged for a closer look

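In 3 of 18 groups of 4 libraries, 1 library lay far from the other 3 for its gene, where chance flags about 1 group in 20. Krt8 was lowest in hairpin 2 replicate 4 (203 CPM, against 293 to 308 CPM in the other hairpin 2 libraries). Krt18 was highest in hairpin 2 replicate 1 (748 CPM, against 714 to 718 CPM). Dsc2 was highest in control 2 replicate 3 (220 CPM, against 195 to 196 CPM).

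The difference of Dsc2 between hairpin and control clone was unlike for the hairpins by test. The hairpin 2 log2 fold change minus that of hairpin 1 was -1.13 (edgeR adjusted p = 0.013, below 0 in all 14 fits that left out 1 library). It did not pass without both replicate 4 libraries of set 2 (edgeR adjusted p = 0.055). Dsc2 lay below every control library in 4 of 4 hairpin 2 libraries and above every control library in 3 of 3 hairpin 1 libraries.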

How the results depend on the processing

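Across 12 alternatives for hairpin 1, 15 for hairpin 2 and 19 for the difference, most of the values of the 9 genes kept their direction and their side of the threshold: 98 of 108, 120 of 135 and 162 of 171. For hairpin 2 every direction held, with 10 calls lost and 5 gained. The number of genes called in hairpin 2 against control 2 was 1346 by DESeq2, 2880 with the replicate block, 120 in the model of all 14 libraries, 2466 by voom with quality weights, 2396 without both replicate 4 libraries, and 453 to 1409 without 1 library. Of the 9 genes, the model of all 14 libraries called 1 and the fits without 1 library 3 to 5. Calls of other lists in this comparison also changed without both replicate 4 libraries. As lower, 3 epithelial, 4 goblet cell, 3 Paneth cell, 2 stem cell and 1 immune marker passed. Squamous markers gave 1 higher and 1 lower, other keratins 4 and 3, and other desmosome genes 2 and 3. Linkers and hemidesmosome genes gave 1 and 2, and other intermediate filament genes 2 and 1. For hairpin 1 against control 1, DESeq2 called 22 genes, the model of all 14 libraries 187, voom 8, and fits without 1 library 0 to 1, and of the 9 genes the model of all 14 libraries called 1. The replicate block called 0 genes there (smallest adjusted p 0.82). Same-numbered libraries of set 1 correlated at 0.26, 0.00015 and 0.30. Replicates 1 and 3 thus exceeded the limit used for pairing in set 2, and replicate 2 did not. Hairpin 1 replicate 2 and control 1 replicate 3, which differ in number, also exceeded it, at 0.18. With these mixed values, whether numbers mark pairs in set 1 was not decided. For the difference, DESeq2 called 395 genes and 2 of the 9, and leaving out both replicate 4 libraries gave 26 genes and 0 of the 9. The replicate block gave 65 genes and 1 of the 9. Fits without 1 library gave 27 to 959 genes, the most without hairpin 1 replicate 1 (959) and control 1 replicate 2 (248), and 1 to 2 of the 9.

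Some values changed sign, none of them past the threshold, and the cause was not tested. For hairpin 1, Krt8 was -0.0036 without the filter, -0.0030 with the replicate block, -0.077 by voom and -0.11 to 0.11 without 1 library. Krt19 was -0.25 and Jup -0.18 by voom, and without 1 library they ran from -0.073 to 0.81 and from -0.15 to 0.43, lowest without hairpin 1 replicate 1. For the difference, without 1 library Dsp ran from -0.50 to 0.15, Jup from -0.38 to 0.14 and Krt18 from -0.16 to 0.11, and Krt18 was 0.021 without both replicate 4 libraries. No change of scaling moved the median of all genes by over 0.1.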
